A study of Mus musculus with 18 samples.

Results

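The death effectors examined here were 7 genes, Casp1, Casp4, Casp8, Casp12, Gsdmd, Ripk3 and Mlkl, chosen by name from the 54838 genes of the count table. The choice was made with earlier results in view, because Casp4 had been noted for its large rise with TNF, so the Casp4 values in any comparison that holds TNF-treated cells are given as a description without a test. The libraries came from neural stem cells of the ventricular zone of wild-type C57BL/6J mouse brains at embryonic day 14, grown as neurospheres (NSPs) with 20 ng/ml EGF, or moved to medium with 10% FBS on poly-L-ornithine, where such cells become astrocytes. RNA was collected from NSPs, from cells after 24 h or 72 h of differentiation without TNF or with TNF at 50 ng/ml, and from cells after 1 week without TNF, with 3 libraries in each of the 6 conditions. No condition carried an engineered allele, and all cells were wild type. The labels do not say which libraries shared a brain, so the p-values measure the spread between these libraries, which may be partly technical. In a bulk sample, fewer cells that express a gene cannot be told apart from less RNA of it per cell.

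These genes encode the executors of several forms of regulated cell death. Casp1 and Casp4, which in the mouse encodes caspase-11, are inflammatory caspases: caspase-1 is activated on inflammasomes and matures interleukin-1β and interleukin-18, whereas caspase-11 senses cytosolic lipopolysaccharide, and both cleave gasdermin D, the product of Gsdmd, whose amino-terminal part opens pores in the plasma membrane. Casp12 encodes a further caspase of this family, found at the endoplasmic reticulum. Casp8 encodes the initiator caspase of death receptors such as the TNF receptor, and caspase-8 also restrains necroptosis, in which the kinase encoded by Ripk3 phosphorylates the pseudokinase encoded by Mlkl, which then permeabilises the membrane.

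The inflammatory caspase genes are neighbours. On chromosome 9 of GRCm38, Casp1 (ENSMUSG00000025888) lies at chr9:5298517-5307265, Casp4 (ENSMUSG00000033538) at chr9:5308828-5336783 and Casp12 (ENSMUSG00000025887) at chr9:5345430-5373032, all on the plus strand and within 74.5 kb, with no other annotated gene between them. The others lie apart, Casp8 (ENSMUSG00000026029) at chr1:58795374-58847503 on the plus strand, Gsdmd (ENSMUSG00000022575) at chr15:75862327-75867408 on the plus strand, Ripk3 (ENSMUSG00000022221) at chr14:55784995-55788865 on the minus strand and Mlkl (ENSMUSG00000012519) at chr8:111311797-111338177 on the minus strand. No exon base of the 7 genes was shared with another gene, and of the 75-base windows of their transcripts only those of Casp8 recurred elsewhere, at 1.95% of windows, in Gm20257.

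The 250 bases before the start site are shown for the neighbouring caspase genes, because these were the members with measurable levels. RefSeq (GRCm38.p6) gave such a window for 6 of the 7 genes. The windows of Casp1, Casp4 and Casp12 are chr9:5298267-5298516, chr9:5308599-5308848 and chr9:5345226-5345475, plus strand, printed 5′ to 3′ with motif matches in capitals. RefSeq lists 2 start sites for Casp4, 11 bases apart, and the first listed, which is also the upstream one, was taken:

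Casp1: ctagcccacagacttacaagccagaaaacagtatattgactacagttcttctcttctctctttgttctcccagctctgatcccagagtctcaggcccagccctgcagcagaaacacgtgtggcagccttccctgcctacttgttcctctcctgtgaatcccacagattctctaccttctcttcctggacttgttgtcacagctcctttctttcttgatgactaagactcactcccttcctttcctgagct

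Casp4: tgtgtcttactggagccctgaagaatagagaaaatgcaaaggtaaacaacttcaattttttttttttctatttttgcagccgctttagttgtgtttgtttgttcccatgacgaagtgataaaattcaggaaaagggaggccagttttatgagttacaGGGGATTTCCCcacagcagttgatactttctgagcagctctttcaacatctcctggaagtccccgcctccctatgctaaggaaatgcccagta

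Casp12: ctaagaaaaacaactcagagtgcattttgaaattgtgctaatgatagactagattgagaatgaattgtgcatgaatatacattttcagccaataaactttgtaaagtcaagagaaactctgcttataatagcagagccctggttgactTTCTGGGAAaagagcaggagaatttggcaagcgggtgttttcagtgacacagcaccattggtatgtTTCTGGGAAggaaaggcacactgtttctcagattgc

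The capitals in the Casp4 window mark the κB consensus (the NF-κB site), with overlapping matches GGGGATTTCC and GGGATTTCCC that begin 93 and 92 bases before the start site taken, and 104 and 103 bases before the other. The capitals in the Casp12 window mark TTCTGGGAA, a match to the GAS letters TTCNNNGAA recognised by STAT factors, which occurs 102 and 36 bases before the start site. Both strands were searched for the κB consensus, GAS, the ISRE core GAAANNGAAA and the AP-1 letters TGACTCA or TGAGTCA, and no letters of these kinds were found in the windows of Casp1, Casp8, Ripk3 or Mlkl. Of 32851 RefSeq windows of this length, 3.90% held the κB consensus, 7.02% GAS, 2.98% the ISRE core and 4.46% AP-1, and 0.317% held GAS at 2 or more positions. A match is a description of the letters and does not show that a factor binds there.

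The libraries held 12509693 to 22549627 counts each (median 16794798). Levels are given as CPM, which are counts scaled to each library's size by the TMM method. Within conditions, log2 CPM correlated between libraries at 0.974 or above over the 20067 genes tested. Library 1 was the less alike in the NSPs (0.976 and 0.978, against 0.993 between the others), at 24 h with TNF (0.974 and 0.975, against 0.990) and at 72 h with TNF (0.975 and 0.976, against 0.990). The astrocyte markers had a summed level of 5482 to 5878 CPM at 24 h, 5912 to 8329 CPM at 72 h and 2852 to 3331 CPM at 1 week, against 5180 to 5431 CPM in NSPs, 4956 to 6383 CPM at 24 h with TNF and 3617 to 5148 CPM at 72 h with TNF. Gfap itself averaged 2432 CPM at 72 h and 63.4 CPM at 1 week, so the cells labelled astrocytes at 1 week had little of this defining marker. It measured 11.6 to 37.3 CPM in NSPs, 864 to 949 CPM at 24 h, and with TNF 1871, 463 and 596.5 CPM at 24 h and 1022, 217 and 229 CPM at 72 h, the last 3 below the 1855 to 3172 CPM of the untreated 72 h libraries. The 6 markers of proliferating neural stem cells summed to 3557 to 5026 CPM in NSPs and to 1079 to 1866 CPM in the other conditions. The part of these marker levels in the changes given below was not tested.

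The members fell into a group that was expressed and a group that was close to or at 0. Casp12 reached 149.7 CPM and Casp4 90.01 CPM, Casp1 reached at most 2.02 CPM, and no library of Mlkl, Gsdmd, Casp8 or Ripk3 exceeded 0.455 CPM. Casp1, Casp4 and Casp12, 3 of the 7, passed the filter on low counts and were tested with all other genes by edgeR's quasi-likelihood test with Benjamini-Hochberg adjustment. A gene was called changed at an adjusted p under 0.05.

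**Figure D1:**
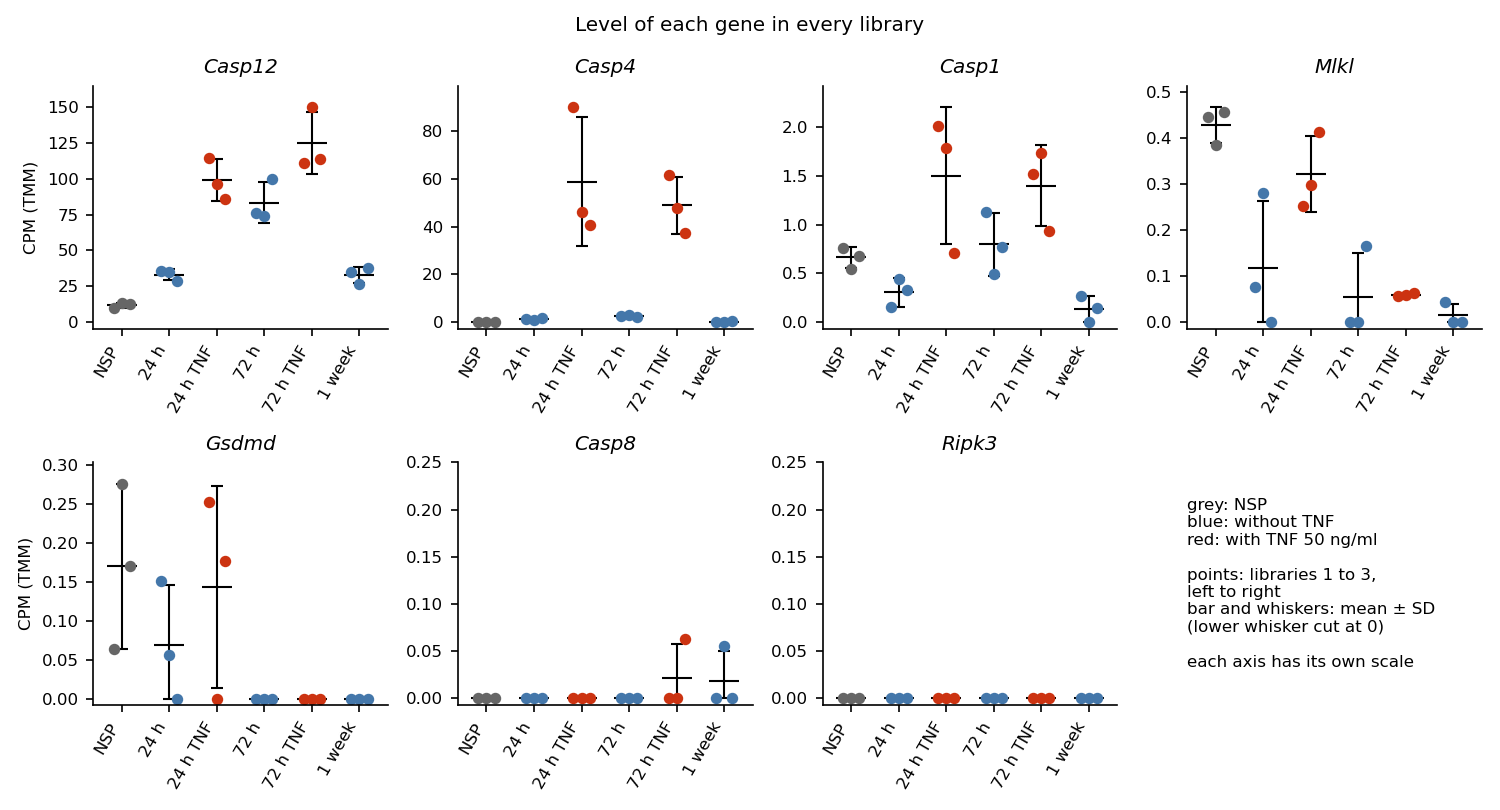
CPM of the 7 death effectors in each of the 18 libraries (points), with the mean and SD of each condition. Each panel has its own linear axis: Casp12 rose from NSPs to 72 h and fell at 1 week, Casp4 stood at 37.5 CPM or above in the TNF-treated libraries and at 2.82 CPM or below in all others, and the lower panels hold single counts.

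Without TNF, Casp12 had the highest level per kilobase of exon of the 7 genes in every condition. It measured 9.90, 13.2 and 12.5 CPM in the NSP libraries, 35.97, 35.0 and 28.8 CPM at 24 h, and 76.1, 74.1 and 100.1 CPM at 72 h. At 1 week it measured 34.7, 26.7 and 37.5 CPM. The 24 h and 1 week values overlapped, whereas every 72 h value lay above them and every NSP value below. Relative to NSPs, Casp12 rose 2.80-fold at 24 h (log2 fold change 1.49 ± 0.18 SE, edgeR adjusted p = 2.19e-06), 7.03-fold at 72 h (2.81 ± 0.18, adjusted p = 4.14e-10) and 2.78-fold at 1 week (1.47 ± 0.18, adjusted p = 1.25e-06). It rose from 24 h to 72 h (log2 fold change 1.33 ± 0.17, edgeR adjusted p = 1.86e-05) and fell from 72 h to 1 week (-1.34 ± 0.17, adjusted p = 9.05e-05).

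Casp12 was higher still with TNF. The 24 h TNF libraries measured 114.5, 96.6 and 85.8 CPM, all above the untreated 24 h libraries, a rise of 2.97-fold (log2 fold change 1.57 ± 0.17 SE, edgeR adjusted p = 2.26e-05). Without library 1 of the 24 h TNF condition the log2 fold change was 1.44 (edgeR adjusted p = 0.000112). The 72 h TNF libraries measured 110.7, 149.7 and 113.6 CPM, again all above the untreated 72 h libraries, a rise of 1.49-fold (0.58 ± 0.17, adjusted p = 0.0357). That call was lost when replicate numbers entered as a block (edgeR adjusted p = 0.0521), when the compared groups were fitted alone (0.0531), and without 72 h library 1 (0.0621), 72 h library 2 (0.169) or 72 h TNF library 2 (0.141). It was kept when 72 h library 3, whose number is in doubt, was left unpaired in the block (log2 fold change 0.76, edgeR adjusted p = 0.0330). The difference between the changes at the 2 times, tested as the interaction of TNF and time, was -0.99 ± 0.24 on the log2 scale and was not called by edgeR (adjusted p = 0.0816), while DESeq2 called it (adjusted p = 0.0170). With TNF, Casp12 did not differ detectably between 72 h and 24 h (log2 fold change 0.33 ± 0.17, edgeR adjusted p = 0.211).

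Casp4 was near 0 in NSPs and low without TNF. Its counts were 1, 2 and 3 in the NSP libraries, 17, 15 and 24 at 24 h, 33, 46 and 40 at 72 h, and 4, 2 and 7 at 1 week. The corresponding levels were 0.0635, 0.110 and 0.171 CPM in NSPs, 1.29, 0.839 and 1.96 CPM at 24 h, 2.50, 2.82 and 2.20 CPM at 72 h, and 0.177, 0.110 and 0.493 CPM at 1 week. The NSP and 1 week values overlapped, the 24 h values lay above both, and the 72 h values lay above those at 24 h. Because the NSP counts were so few, the change from NSPs is given as a ratio of summed counts with an exact 95% interval for counting error, 11.1 (4.79 to 31.5) at 24 h, 21.4 (9.56 to 59.6) at 72 h and 2.03 (0.719 to 6.51) at 1 week. Without 1 week library 3 the log2 fold change at 1 week was 0.31, in place of 0.99. The comparison with NSPs was called at 24 h (edgeR adjusted p = 0.000297) and 72 h (adjusted p = 4.98e-06) and not at 1 week (adjusted p = 0.345). From 72 h to 1 week Casp4 fell by 3.35 on the log2 scale (SE 0.51, edgeR adjusted p = 0.000436) and, without 1 week library 3, fell by 4.03, while from 24 h to 72 h its change of 0.92 ± 0.39 was not called (adjusted p = 0.0992). These comparisons use the untreated libraries that also serve as controls for TNF.

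With TNF, Casp4 had 1429, 618 and 689 counts at 24 h, or 90.01, 46.1 and 40.6 CPM. At 72 h with TNF it had 1093, 823 and 599 counts, or 61.6, 47.8 and 37.5 CPM. The TNF-treated values did not overlap with those of any untreated condition, and the 2 TNF conditions overlapped with each other. The fitted log2 fold change was 5.48 at 24 h (44.5-fold) and 4.29 at 72 h (19.5-fold), which placed Casp4 at rank 8 and rank 10 of the 20067 genes by size of the rise. Leaving out each library in turn gave log2 fold changes from 5.02 to 5.80 at the earlier time and 4.09 to 4.45 at the later. The lowest of these at 24 h was the value without library 1 of the TNF condition, which alone stood at 90.01 CPM. Between 24 h TNF and 72 h TNF the log2 difference was -0.27, and it turned to 0.22 without that library.

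Casp1 was low throughout. It measured 0.762, 0.549 and 0.683 CPM in NSPs, 0.151, 0.447 and 0.326 CPM at 24 h, and 1.14, 0.491 and 0.770 CPM at 72 h. At 1 week 1 library had no count and the others measured 0.265 and 0.141 CPM, so that every 1 week value lay below every NSP and 72 h value. Casp1 was lower at 1 week than in NSPs (log2 fold change -2.15 ± 0.65 SE, edgeR adjusted p = 0.00860) and than at 72 h (-2.39 ± 0.64, adjusted p = 0.0297), while its changes from NSPs at 24 h (-1.04 ± 0.59, adjusted p = 0.150) and at 72 h (0.25 ± 0.51, adjusted p = 0.705) and from 24 h to 72 h (1.28 ± 0.59, adjusted p = 0.124) were not called. Without 1 week library 1 the log2 fold changes at 1 week were -3.26 against NSPs and -3.50 against 72 h. The 1 week call against 72 h was lost without 72 h library 1 (edgeR adjusted p = 0.0884) or 3 (0.0743) and without 1 week library 2 (0.111) or 3 (0.0853), when the compared groups were fitted alone (0.0561), and with the replicate block when 72 h library 3 was left unpaired (0.102).

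With TNF, Casp1 measured 2.02, 1.79 and 0.708 CPM at 24 h and 1.52, 1.74 and 0.939 CPM at 72 h. All 24 h TNF values exceeded all untreated 24 h values, whereas at 72 h the treated and untreated values overlapped. The log2 fold change with TNF was 2.20 ± 0.55 SE at 24 h (4.59-fold, edgeR adjusted p = 0.0291) and 0.83 ± 0.47 at 72 h (adjusted p = 0.280), and their difference, -1.37 ± 0.73, was not called (adjusted p = 0.546). The 24 h call rested on few counts, 68 with TNF and 14 without, and was lost in 5 of the 6 fits that left out a library: without 24 h library 1 (edgeR adjusted p = 0.153), 2 (0.0697) or 3 (0.110), and without 24 h TNF library 1 (0.130) or 2 (0.0915). It was also lost when the compared groups were fitted alone (edgeR adjusted p = 0.0518). Between 24 h TNF and 72 h TNF, Casp1 changed by -0.09 ± 0.44 on the log2 scale (edgeR adjusted p = 0.933), and the sign turned without 24 h TNF library 1 or 2 or without 72 h TNF library 3.

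Beside the Casp1 and Casp4 values stand those of microglia and macrophages, which express these genes. The 15 markers of those cells summed to 4.86 to 6.36 CPM at 24 h and 8.20 to 17.95 CPM at 24 h with TNF, and to 3.80 to 5.37 CPM at 72 h and 4.88 to 12.3 CPM at 72 h with TNF. C1qa, C1qb and C1qc had no count in any of the 18 libraries, and Trem2 and Tyrobp had 2 counts each in all. Without Cd68, a lysosomal protein gene, the other 14 markers summed to 2.96 to 3.83 CPM at 24 h and 2.65 to 3.95 CPM at 24 h with TNF. Cd68 measured 15.3, 4.55 and 4.78 CPM at 24 h with TNF and 9.58, 2.09 and 2.32 CPM at 72 h with TNF, the highest value in each being that of library 1, as for Casp4. Cd68 was called at 24 h (log2 fold change 2.06, edgeR adjusted p = 0.0409), whereas Csf1r (-0.09) and P2ry12 (-0.14) were not (adjusted p = 0.964 and 0.929). The Cd68 call was lost without 24 h TNF library 1 (1.22, edgeR adjusted p = 0.316) and without any of the 24 h libraries. In the same comparison the 4 fibroblast or mural markers went from 1.66 to 2.12 CPM at 24 h to 2.83 to 5.79 CPM with TNF, and the 4 oligodendrocyte markers from 15.2 to 20.6 CPM to 7.62 to 8.20 CPM, while at 72 h the treated and untreated sums of both lists overlapped. The part of these markers in the TNF comparisons was not tested.

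Mlkl, the executor of necroptosis, was detected at no more than 8 counts in a library. Its counts were 7, 7 and 8 in NSPs, 1, 5 and 0 at 24 h, 0, 0 and 3 at 72 h, and 1, 0 and 0 at 1 week. Every NSP count was above every count of the untreated differentiating cells. Relative to NSPs the ratio of summed counts was 0.324 at 24 h (exact 95% interval 0.108 to 0.824), 0.147 at 72 h (0.0283 to 0.491) and 0.0425 at 1 week (0.00103 to 0.263). Mlkl did not pass the filter. In the fit of every gene with at least 5 counts in total it was called lower at 72 h (edgeR adjusted p = 0.0129) and 1 week (adjusted p = 0.00140) and not at 24 h (adjusted p = 0.0909). With TNF its counts were 4, 4 and 7 at 24 h and 1 in each library at 72 h, and neither comparison with untreated cells was called in that fit (adjusted p = 0.634 and 1.00).

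Gsdmd, the substrate of the inflammatory caspases, had 1, 5 and 3 counts in NSPs, 2, 1 and 0 at 24 h, and 4, 0 and 3 at 24 h with TNF. It had no count in the 9 libraries of 72 h, 72 h TNF and 1 week, where 3 counts in a condition would have been 0.0545 to 0.0629 CPM. In the fit without the filter Gsdmd was called lower than in NSPs at 72 h (edgeR adjusted p = 0.0309) and 1 week (adjusted p = 0.0228) and not at 24 h (adjusted p = 0.403). No fold is given, since the 3 NSP libraries held 9 counts in all. Libraries were left out in turn only after the filter, so whether the Mlkl and Gsdmd calls rest on 1 library was not tested.

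Casp8 had 1 count in a 72 h TNF library, 1 count in a 1 week library and none in the other 16 libraries. Ripk3 had no count in any of the 18 libraries. A count of 0 in a single library allows up to 0.133 to 0.244 CPM, and over all 18 libraries it allows up to 0.0102 CPM, by counting error alone. Neither gene was tested. At this depth Ripk3 was not detectable, with or without TNF.

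The members called can be read against all genes tested. Of the 20067 genes, 27.2% were called higher than in NSPs at 24 h and 25.5% were called lower, and of the tested members Casp4 and Casp12 were higher and none lower. At 72 h the shares were 28.1% higher and 27.2% lower, and again Casp4 and Casp12 were higher and none lower. At 1 week 29.6% of genes were higher, as was Casp12, and 29.1% were lower, as was Casp1. Between 72 h and 24 h 24.8% of genes were called in either direction, among the members Casp12. Between 1 week and 72 h 6.63% were called, and Casp1, Casp4 and Casp12 were all lower. With TNF 2.18% of genes were called higher and 1.32% lower at 24 h, where Casp1 and Casp12 were higher beside the untested Casp4. At 72 h with TNF 4.35% were higher and 5.21% lower, and Casp12 was higher. Between 72 h TNF and 24 h TNF 13.3% of genes were called, and 0 of Casp1 and Casp12 by edgeR or DESeq2, or at an unadjusted p under 0.05. The interaction of TNF and time was called for 0.458% of genes by edgeR and for neither Casp1 nor Casp12, of which Casp12 had an unadjusted p of 0.000561 and was called by DESeq2.

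Levels between genes were compared per kilobase of exon. At 72 h Casp12 stood at 21.7 ± 3.77 CPM per kilobase (SD, n = 3), Casp4 at 0.676 ± 0.0837 and Casp1 at 0.534 ± 0.216, the last pair being within its spread. With the length of the longest coding transcript, Casp4 stood at 1.75 ± 0.217 at 72 h and Casp1 again at 0.534 ± 0.216, which did not overlap, so that this tie rests on the length taken for Casp4. At 24 h with TNF Casp12 stood at 25.8 ± 3.77 CPM per kilobase, Casp4 at 15.9 ± 7.30 and Casp1 at 1.01 ± 0.467. The order of Casp4 and Casp12 at 24 h with TNF also depends on that length, since the exons of Casp4 together hold 3710 bases and its longest coding transcript holds 1435. With the length of the longest coding transcript, a choice made after seeing the data, the 24 h TNF levels were 41.1 ± 18.9 CPM per kilobase for Casp4 and 37.4 ± 5.46 for Casp12, in the opposite order and within their spread.

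Genes that follow the members most closely were sought among 14390 other named genes of at least 1 CPM in some condition, by Pearson correlation of log2 CPM over the 18 libraries, which share conditions and so are not independent. Casp4 was most like Tlr2 (0.977), Cebpd (0.975) and Irf1 (0.972), which encode a bacterial lipopeptide receptor, a C/EBP transcription factor and an interferon regulatory factor. Casp12 was most like Osmr (0.970), the oncostatin M receptor gene, Rasgef1b (0.963) and Ugt1a7c (0.948). For Casp1 the highest values were lower, with Mboat1 (0.839), Hace1 (0.837) and Flt1 (0.826). Tlr2 for example averaged 2.11 ± 0.347 CPM at 24 h and 24.5 ± 14.3 CPM at 24 h with TNF (SD, n = 3), and Osmr 9.81 ± 0.613 and 40.3 ± 20.5 CPM. With rank correlation none of the 3 genes stayed among the 3 most alike for any of these members.

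**Figure D2:**
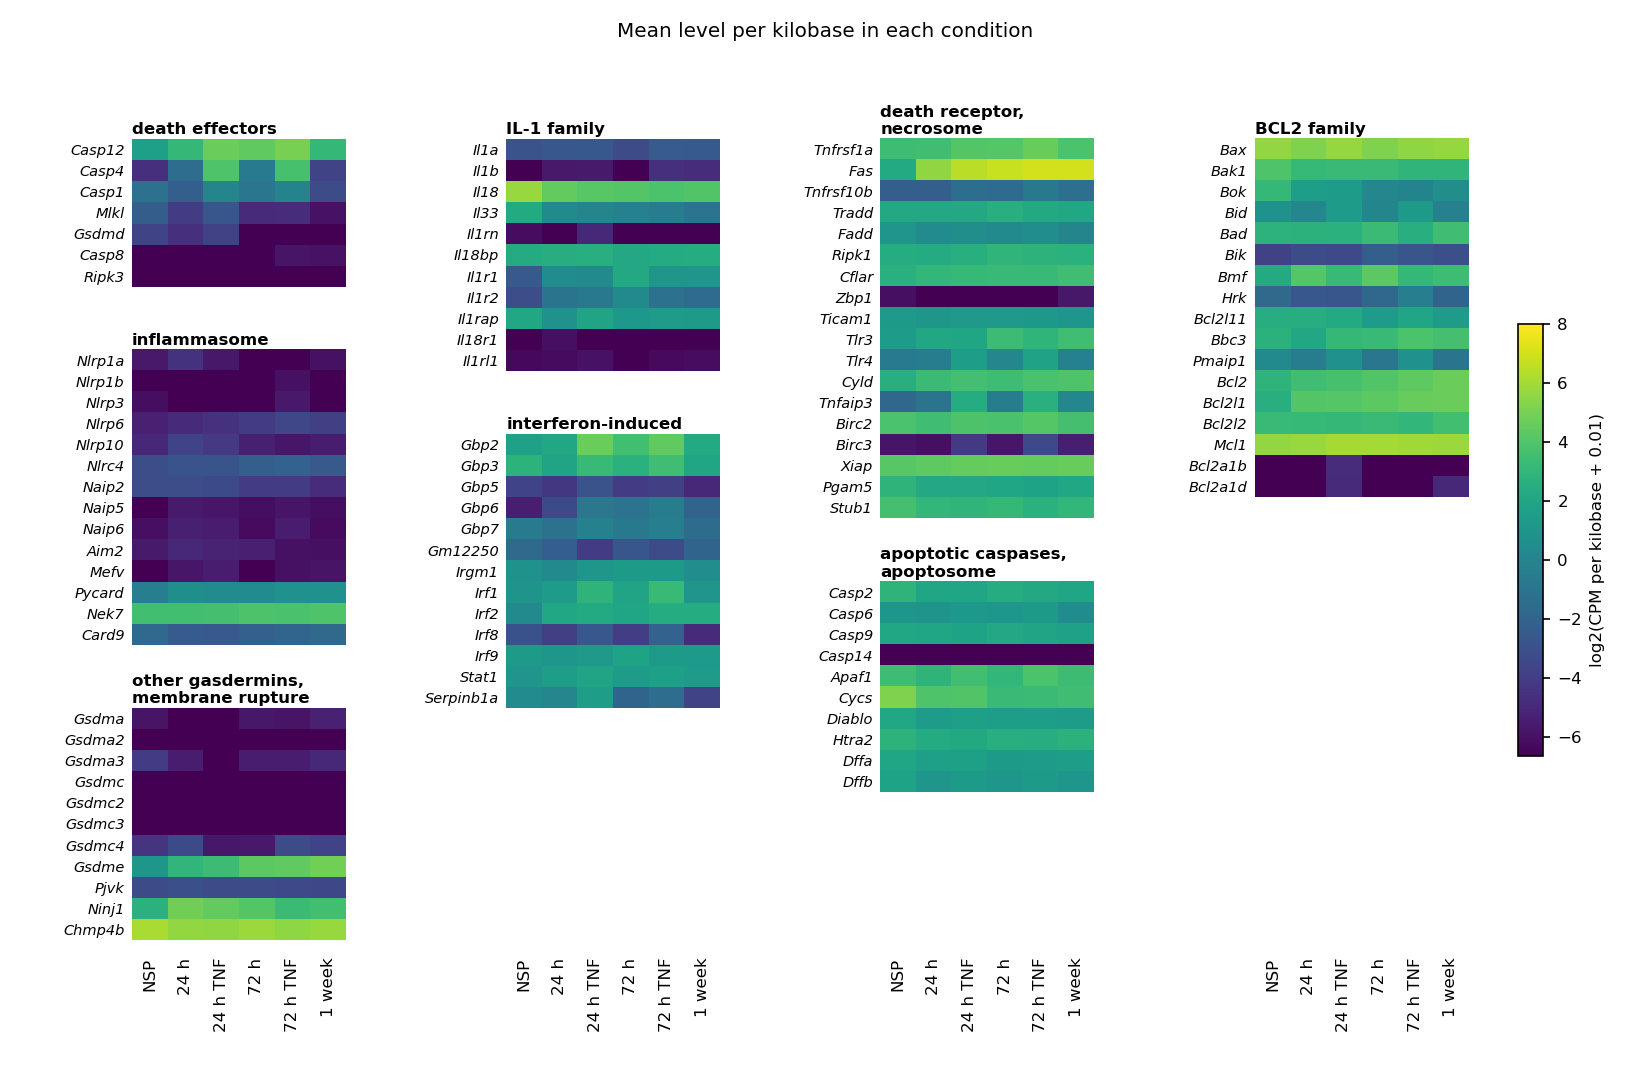
Mean level of the death effectors and of 7 lists of genes of the same pathways in the 6 conditions, as log2(CPM per kilobase + 0.01), with yellow the highest. Ripk3, Casp8 and Gsdmd are dark beside readily measured neighbours such as Ripk1, Fadd, Gsdme and Mcl1.

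The other genes of the pathways were read from lists chosen with earlier results of these data known. Their counts stand beside all genes tested, of which 27.2%, 28.1% and 29.6% were higher than in NSPs at 24 h, 72 h and 1 week and 25.5%, 27.2% and 29.1% lower, with a median log2 fold change of 0.051 at 72 h. From 72 h to 1 week 6.63% of all genes were called, and with TNF 2.18% were higher and 1.32% lower at 24 h and 4.35% and 5.21% at 72 h. Upstream of caspase-1, 9 of 14 inflammasome sensors and adaptors had fewer than 10 counts in every library, among them Nlrp3 (at most 1 count), Nlrp1b (at most 2) and Aim2 (at most 3). Of the 4 tested, Pycard, the adaptor ASC, was higher than in NSPs at 24 h (log2 fold change 1.04, edgeR adjusted p = 0.0490) and 1 week (1.17, adjusted p = 0.0240), and Nek7 was higher at 72 h (0.32) and 1 week (0.40). Their median at 72 h was 0.55. Without NSP library 1 the values of Pycard were 1.73 at 24 h and 1.86 at 1 week. The 24 h count fell to 0 without NSP library 2 or 3 or any of the 24 h libraries, and the 72 h count to 0 without NSP library 2 or 3 or 72 h library 3, while it was 2 without NSP library 1. The 1 week count was 1 without NSP library 2 or 3 or 1 week library 2. With TNF, 0 of the 4 were called at 24 h or at 72 h by edgeR or DESeq2, or at an unadjusted p under 0.05. The caspase-1 substrate gene Il1b had at most 2 counts in a library. Il18, the other substrate gene, named with its values in view, averaged 54.1 ± 7.54 CPM in NSPs and decreased to 22.8 ± 2.47 CPM at 24 h and 16.5 ± 1.97 CPM at 1 week (SD, n = 3).

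Of the 6 tested genes of the interleukin-1 family list of 11, 2 exceeded and 3 fell below their NSP level at 24 h, 72 h and 1 week. Those higher were 33.3% of the genes tested, near the 27.2%, 28.1% and 29.6% of all genes. Those lower were 50.0%, against 25.5%, 27.2% and 29.1%. The receptor gene Il1r1 rose most, by 4.79 on the log2 scale at 72 h (edgeR adjusted p = 9.81e-09), followed by the decoy receptor gene Il1r2 at 3.61, while the alarmin gene Il33 fell by 2.58. Without NSP library 1 the value of Il1r1 was 5.42. The median of the list at 72 h was -0.57. With TNF, Il1rap, the accessory receptor, was higher at 24 h (log2 fold change 1.17, edgeR adjusted p = 0.00283), and Il1r1 (-1.11) and Il1r2 (-1.51) were lower at 72 h (adjusted p = 0.0311 and 0.0207). The count lower at 72 h with TNF was 0 without 72 h library 2 or 3 or 72 h TNF library 2 or 3, and 1 without 72 h TNF library 1. The count higher at 1 week was 1 without NSP library 3 or 1 week library 1.

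Among other gasdermins and rupture genes, 8 of 11 had fewer than 10 counts in every library. Gsdme, which encodes another pore-forming gasdermin, averaged 27.6 ± 6.64 CPM in NSPs and rose to 99.8 ± 4.14 CPM at 24 h, 256.2 ± 42.9 CPM at 72 h and 373 ± 46.5 CPM at 1 week (log2 fold change at 1 week 3.76, edgeR adjusted p = 2.15e-11). Ninj1, whose product ruptures the membrane of dying cells, was higher than in NSPs at 24 h (2.11), 72 h (1.39) and 1 week (0.88). The Ninj1 call at 1 week was lost without NSP library 1 or 3 or 1 week library 1 or 3. Chmp4b, an ESCRT-III gene of membrane repair and the third gene tested, was lower at 24 h (-0.50, edgeR adjusted p = 0.00610) and 1 week (-0.41, adjusted p = 0.0159), the latter call being lost without NSP library 3 or 1 week library 2. It was not called at 72 h, where DESeq2, RLE normalization, the replicate block with 72 h library 3 paired or unpaired, and the fit without that library called it lower. With TNF, 0 of the 3 tested genes were called at either time by edgeR or DESeq2, and 1 at each time had an unadjusted p under 0.05. Leaving out 1 library at a time gave 0 to 1 lower at 72 h with TNF.

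Of 13 listed genes that are interferon-induced or act upstream of caspase-11 and gasdermin D, 11 were tested. With TNF 6 were higher, Serpinb1a (1.39) among them, and none lower at 24 h, with a median log2 fold change of 1.35 against -0.005 over all genes. Without 24 h TNF library 1 the median was 0.81. The fibroblast or mural and oligodendrocyte marker sums given above also differed without overlap in this comparison. The microglia sums did so only with Cd68, the other 14 markers overlapping (2.96 to 3.83 CPM at 24 h, 2.65 to 3.95 CPM with TNF). The part of these markers in the comparison was not tested. Gbp6 (2.60), Gbp2 (2.52) and Irf1 (1.46) rose most. Gbp2, a guanylate-binding protein gene, averaged 11.04 ± 0.725 CPM at 24 h and 63.3 ± 51.2 CPM with TNF (SD, n = 3), its highest library, again library 1, at 122.5 CPM. Without that library 2 of the list were called at 24 h, Gbp2 (1.59, edgeR adjusted p = 0.00131) and Irf1 (1.22, adjusted p = 0.000230), while Gbp6 (1.16) was not (adjusted p = 0.215). The count was also 2 without 24 h library 1 or 3, and 3 without 24 h library 2. At 72 h with TNF 2 were higher, Irf8 (2.08) and Irf1 (1.38), and Irf9 was lower (-0.52), with a median of 0.55. The Irf9 call was lost without any of the 72 h libraries and without 72 h TNF library 1 (-0.38, edgeR adjusted p = 0.144) or 2. Without TNF 7 of the 11 were higher than in NSPs at 72 h and 2 lower, with a median of 0.49, Gbp6 (5.04) and Gbp2 (1.85) rising most and Serpinb1a (-2.41) falling most, and from 72 h to 1 week 4 were lower, Gbp2 (-1.32), Irf1 (-0.92) and Irgm1 (-0.83) most. The count lower at 72 h was 1 without NSP library 2 or 72 h library 1 or 3, and the count lower at 1 week was 1 without 72 h library 2 and 2 without 1 week library 1 or 2. The Gbp2 call at 1 week (edgeR adjusted p = 0.0494) was lost without any of the 1 week libraries and without 72 h library 2 or 3, with adjusted p from 0.105 to 0.177, and that of Irgm1 without 72 h library 2 (0.0636).

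The genes listed as regulators of death receptors and of necroptosis were well measured. Of 18 genes 16 were tested, and only Zbp1 (at most 1 count) and Birc3 (at most 8) had fewer than 10 counts in every library. Ripk1 and Fadd, named here with their values in view, link death receptors to caspase-8. Ripk1 averaged 44.8 ± 1.78 CPM in NSPs and 63.7 ± 7.59 CPM at 72 h, and Fadd 7.84 ± 0.924 and 4.87 ± 0.962 CPM (SD, n = 3). Fas, a death receptor gene, averaged 10.01 ± 0.583 CPM in NSPs and rose to 221 ± 19.5 CPM at 72 h (log2 fold change 4.47, edgeR adjusted p = 2.92e-12). Relative to NSPs 5 genes of this list were higher and 4 lower at 24 h, 9 and 3 at 72 h, and 8 and 3 at 1 week. At 24 h the genes higher were 31.2% of those tested, near the 27.2% of all genes, and 4 of 16 lower is likewise near the 25.5% of all genes. At 72 h they were 56.2% and 18.8%, with a median of 0.59, Tlr3 (1.98) rising most after Fas and Pgam5 (-0.90) falling most. The count lower at 24 h was 2 without any of the NSP libraries and 1 without 24 h library 3. With TNF 3 were higher at 24 h, Tnfaip3 (3.44), Tlr4 (2.10) and Fas (0.91), and 2 at 72 h, Tnfaip3 (3.09) and Tlr4 (1.71), and none was lower, although 1 was lower, Tlr3 (-0.56, edgeR adjusted p = 0.0447), without 72 h TNF library 1. Tnfaip3 encodes A20, an inhibitor of NF-κB signalling, and averaged 3.51 ± 0.291 CPM at 24 h and 38.3 ± 0.876 CPM with TNF.

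Most tested genes of the apoptosome and of other apoptotic caspases were lower in differentiating cells than in NSPs. Of the 10 genes of this list 9 were tested, and none was higher than in NSPs at 24 h, 72 h or 1 week, while 6, 6 and 7 were lower. Those lower were 66.7%, 66.7% and 77.8% of the genes tested, against 25.5%, 27.2% and 29.1% of all genes, and the median at 72 h was -0.46. The stem cell marker sums were lower as well, from 3557 to 5026 CPM in NSPs to 1405 to 1509 CPM at 24 h, 1382 to 1744 CPM at 72 h and 1408 to 1866 CPM at 1 week, and their part in these counts was not tested. Cycs, the cytochrome c gene, averaged 123.5 ± 47.6 CPM in NSPs and 31.9 ± 8.81 CPM at 72 h (SD, n = 3), a log2 fold change of -1.95 (edgeR adjusted p = 9.91e-07). Dffb, which encodes the nuclease that cuts DNA in apoptosis, fell by 0.74 on the log2 scale at 72 h and Dffa, the gene of its inhibitor, by 0.72. With TNF only Apaf1, the scaffold of the apoptosome, was called, higher at 24 h (0.71) and at 72 h (0.80). Of 14 tested genes of the BCL2 family list of 17, relative to NSPs 3 rose and 4 fell at 24 h, 3 and 6 at 72 h, and 6 and 5 at 1 week. At 24 h these were 21.4% and 28.6% of the genes tested, near the shares of all genes, and the median at 72 h was -0.032. Leaving out 1 library at a time gave medians at 72 h from -0.176 (without 72 h library 2) to 0.1 (without 72 h library 3). Without NSP library 2 or 72 h library 1, 5 rose at 72 h. The largest changes at 72 h were those of Bok (-2.94) and Bmf (1.96), both proapoptotic, and of the antiapoptotic Bcl2l1 (1.71). At 1 week the 6 that rose were the antiapoptotic Bcl2l1 (2.06), Bcl2 (1.88) and Bcl2l2 (0.38) and the proapoptotic Bmf (1.103), Bbc3 (0.90) and Bad (0.66), and the 5 that fell were the proapoptotic Bok (-2.49), Pmaip1 (-1.33), Bid (-1.11), Bcl2l11 (-1.07) and Bak1 (-1.01). The 1 week call of Bad was lost without NSP library 1 or 1 week library 1, and that of Pmaip1 without NSP library 1 or 1 week library 3. With TNF, Bid, the caspase-8 substrate, was higher at 24 h and at 72 h (1.28 at both times, edgeR adjusted p = 0.00259 and 0.000996), and at 72 h Pmaip1 (1.65) was higher and Bmf (-1.18) and Bad (-0.71) were lower. At 72 h with TNF, 1 was higher without 72 h library 2 or 72 h TNF library 1, 0 were lower without 72 h library 2 or 3 or 72 h TNF library 2, and 1 was lower without 72 h TNF library 1 or 3. Without 72 h TNF library 1 neither Pmaip1 (edgeR adjusted p = 0.142) nor Bad (0.155) was called. The Pmaip1 call was also lost without 72 h library 2 (edgeR adjusted p = 0.0606) or 3 (0.0657).

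**Figure D3:**
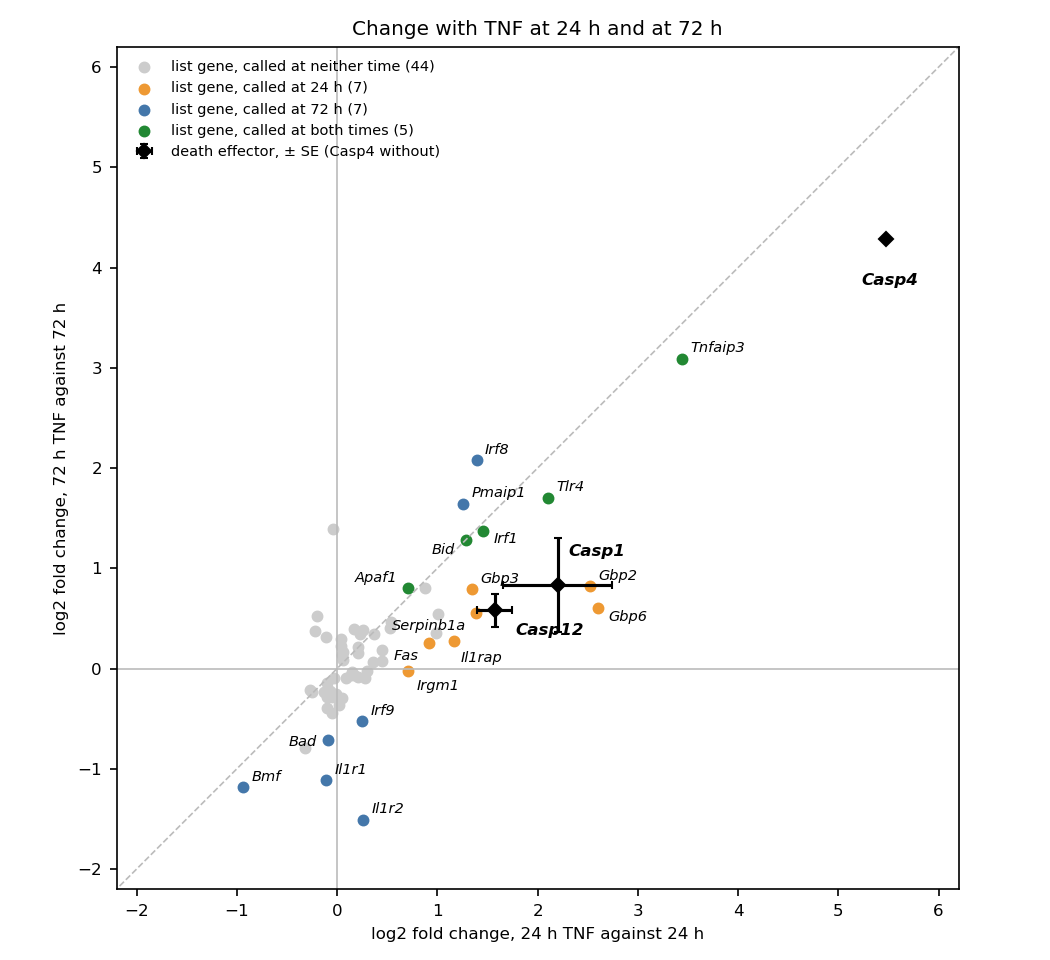
Log2 fold change with TNF at 24 h (horizontal axis) and at 72 h (vertical axis) of the 3 death effectors that passed the filter (diamonds, with SE for Casp1 and Casp12 and none for Casp4, which was not tested here) and of the 63 tested genes of the 7 lists, coloured by the time at which edgeR called them. The dashed line marks equal change: Casp4, Casp1 and Casp12 lie below it, and of the list genes 44 were called at neither time, 7 at 24 h alone, 7 at 72 h alone and 5 at both.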

How the data were processed

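RNA was sequenced from 18 cultures of mouse cells as stranded, ribosome-depleted libraries. The authors deposited a single table of raw counts per gene, with no normalization. Per the labels' processing notes, reads were checked with FastQC, trimmed with Trim Galore, aligned with STAR to mm10, sorted with SAMtools and counted with featureCounts. Tool versions, how strand was set and how reads matching several genes were treated are not given in the sources used here. RNA quality is given only as a wide range over all libraries, which reaches low values, and not for each library. Of 54838 gene identifiers, 54809 were found in GENCODE M21 (GRCm38), the source of names, positions and lengths. Each column was matched to its sample by the label. The column matched to 72 h replicate 3 carries that sample's index and condition but the number 4.

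From the counts, TMM factors and edgeR's quasi-likelihood test (edgeR 4.0.16, limma 3.58.1, R 4.3.3) were fitted to the 18 libraries, each condition having its own mean, after edgeR's filter by condition. The 20067 genes tested were adjusted together by Benjamini-Hochberg at a threshold of 0.05, and the SE was computed as the absolute log2 fold change over the square root of F. The biological coefficient of variation was 0.18. Fits were tested on simulated counts. CPM are counts scaled to library size by TMM, and log2 CPM for correlations used a prior count of 2. Intervals of count ratios (exact binomial, 95%) and floors (3 counts) cover counting error only, since the reads carry no molecular identifiers and can repeat a molecule. Total counts of 12509693 to 22549627 per library make 3 counts worth 0.133 to 0.244 CPM. Chi-square per degree of freedom between replicates was 4.08 to 62.7, above sampling noise, so no library was taken for a duplicate. Same-numbered libraries deviated together between 24 h TNF and 72 h TNF (correlations 0.255 to 0.291) and in no other comparison with all 3 numbers above 0.1.

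The members and the gene lists were chosen with earlier results of these data known, and some genes are not reported here. Named were all members, up to 3 called list genes of the largest change per comparison, list genes under 10 counts in every library, and the 3 genes most alike per member of at least 1 CPM in some condition. Some list genes were named beyond this rule, among them Il18, Ripk1, Fadd, Pgam5 and further genes of the BCL2 family. Alternatives were DESeq2 1.42.0, RLE normalization, other count filters, a replicate block, fits of the compared groups alone, a fold minimum, and leaving out each library.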

Additional observations from a re-analysis of the deposited data

How the results depend on the processing

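The number of members called changed with the filter. Without the filter (at least 5 counts in total) 4 members were called at 72 h and at 1 week against NSP, in place of 2. Mlkl and Gsdmd then entered, both lower than in NSPs. The share of all genes called in that fit is not given here. The main fit called 28.1% of genes higher and 27.2% lower at 72 h, and 29.6% and 29.1% at 1 week. With at least 10 counts in every library only Casp12 could be tested, and 1 member was called at 24 h, 72 h and 1 week against NSP, at 1 week against 72 h and, Casp4 aside, at 24 h TNF against 24 h.

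For members other than Casp4, the fit of only the groups compared called 1 at 24 h TNF against 24 h and 0 at 72 h TNF against 72 h, where the replicate block and a log2 fold change of at least 1 also gave 0. DESeq2 called 1 for the interaction of TNF and time. The cause of these changes was not tested.

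Leaving out 1 library at a time, after the filter, gave 1 to 2 members other than Casp4 called at 24 h TNF and 0 to 1 at 72 h TNF. It gave 2 to 3 members at 1 week against 72 h and left the other member counts as they were. Mlkl and Gsdmd were not in these fits. The log2 fold change of Casp1 at 72 h against NSP then ranged from -0.073 to 0.50, and at 72 h TNF against 24 h TNF from -0.44 to 0.24, and that of Casp4 at 72 h TNF against 24 h TNF from -0.48 to 0.22. These were the only member changes that turned in sign. Of 377 member log2 fold changes under alternatives, 353 kept their direction and side of the threshold and 18 lost a call. Of 1848 list counts, 222 moved by over 1.5 times.

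The replicate block changed 1 call among the members, that of Casp12 at 72 h TNF (log2 fold change 0.58). Whether libraries of the same number were paired is not known. Outside 24 h TNF and 72 h TNF their correlations ranged from -0.416 to 0.303. With 72 h replicate 3 unpaired in the block, Casp1 was not called at 1 week against 72 h and Casp12 was called at 72 h TNF (0.76).

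Over all genes, the count called at 1 week against 72 h was 1331 and ranged from 617 to 1961 over the alternatives. At 24 h TNF it was 703, with 363 to 944, at 72 h TNF 1919, with 982 to 2849, at 72 h TNF against 24 h TNF 2670, with 872 to 3793, and for the interaction 92, with 24 to 246. A log2 fold change of at least 1 left 5774 of 10576 at 24 h against NSP, 6481 of 11104 at 72 h, 7020 of 11766 at 1 week and 2681 of 4970 at 72 h against 24 h. Counts set the precision: Mlkl, Gsdmd, Casp8 and Ripk3 had 0 to 8 counts in a library and Casp1 0 to 32.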
